A study of Homo sapiens with 136 samples.

Results

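SCH772984, a kinase inhibitor of ERK1 and ERK2, was added to an autophagy inhibitor in PANC-1, an established cell line from a human pancreatic ductal adenocarcinoma. Expression was measured by PLATE-Seq, which makes barcoded RNA sequencing libraries directly in culture plates. The libraries were chosen by cell line and treatment label: 4 libraries of PANC-1 with SCH772984, of 68 PANC-1 libraries and 136 in the series. Of the 4, 2 were labelled SCH772984-Hydroxychloroquine and 2 SCH772984-VSP34I, 1 of each on plate A and 1 on plate B. They were set first against the 12 PANC-1 libraries of an autophagy inhibitor alone, 6 labelled Hydroxychloroquine-Alone and 6 VSP34I-Alone, 3 of each per plate. They were then set against the PANC-1 libraries of the 3 other ERK inhibitors, ulixertinib, AZD0364 and ravoxertinib, with 4 libraries each in the same layout. VSP34I in the labels was read as Compound 19, the inhibitor of the lipid kinase Vps34 that the protocol names. Treatment began 24 h after plating and lasted 24 h. Every group therefore carried an autophagy inhibitor for 24 h, and untreated cells and SCH772984 on its own were not analysed here. Each drug was dosed where 80% of cells were viable after 48 h of that drug by itself. No concentration is named, so the ERK inhibitors were compared at their own doses and not at matched concentrations. All values come from 1 cell line. The labels do not say whether libraries of a group came from separate cultures. The p-values therefore measure a spread between libraries that may be technical. It was estimated over all 68 PANC-1 libraries together, because 2 per combination are too few for a spread of their own.

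ERK is the last kinase of the RAS, RAF and MEK cascade, which is overactive in most pancreatic cancers. Active ERK switches on immediate early genes, growth genes and a set of its own inhibitors, such as the Sprouty proteins and the dual specificity phosphatases, so the messages of those inhibitors are used to read its activity. Hydroxychloroquine raises the pH of lysosomes, the compartment where autophagy and endocytosed lipoproteins end, and Vps34 makes the lipid that starts an autophagosome. Cells that sense too little cholesterol in the endoplasmic reticulum release the SREBP transcription factors, which switch on the genes of cholesterol and fatty acid synthesis.

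The 4 SCH772984 libraries held 2523054 to 4864359 counts and the 12 alone libraries 2392004 to 4977643. Replicates of a group correlated at 0.932 or more on log2 counts, and no libraries were duplicates of each other. The share of counts from the 13 protein-coding genes of mitochondrial DNA was 19.3 ± 1.59% with SCH772984 (SD, n = 4) and 19.95 ± 1.33% alone (SD, n = 12). Its adjusted p was 0.908 by exact permutation within plate and autophagy inhibitor, and mitochondrial ribosomal RNA was left out of it. The 7 markers of PANC-1 all had counts. Their summed level ran from 2617 to 3760 CPM (counts relative to library size, TMM-scaled) with SCH772984 and from 3339 to 4640 CPM alone. Immune and endothelial markers were near 0. The 12 immune markers summed to 0.455 to 7.01 CPM with SCH772984 and 0.876 to 7.37 CPM alone, and PTPRC, CD3D, CD3E and AIF1 had no count. The 7 endothelial markers summed to 0.382 to 1.23 CPM with SCH772984 and 0.199 to 3.03 CPM alone, with CLDN5 at 0. The 8 fibroblast markers summed to 67.3 to 87.6 CPM with SCH772984 and 36.6 to 65.7 CPM alone. Nearly all of that was COL1A1, while FAP and PDGFRB had no count. Single genes were very high in 1 library of the 16. Between 0 and 9 genes per library were over 10-fold above the next library, among them FAM171B with 8225 CPM and METTL16 with 5412 CPM in the SCH772984-Hydroxychloroquine library of plate B.

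The first comparison asks what SCH772984 changed when it was given together with an autophagy inhibitor. Genes that ERK is known to induce fell, genes of DNA replication fell, and genes of cholesterol synthesis rose, with a few of fatty acid synthesis. Of 12627 genes tested, 869 changed at an adjusted p under 0.05 (edgeR quasi-likelihood test, Benjamini-Hochberg adjusted). That is 6.88% of the genes tested, with 363 higher (2.87%) and 506 lower (4.01%). The median change of a called gene was 0.70 on the log2 scale in either direction, against a median of -0.01 over all genes tested. Changes are given as log2 fold changes ± standard error, SCH772984 over alone. For 270 of the 869 genes all 4 SCH772984 libraries lay outside the range of all 12 alone libraries. Over all 12627 genes tested, 79 lay above and 212 below that range. For 421 of the 869 they lay outside the range of the alone libraries within each autophagy inhibitor. Over all genes tested that held for 178 above and 324 below. Within plate A alone 134 genes passed and within plate B alone 250. Counts of list members within a plate, given below, stand beside these totals. Leaving out the SCH772984-Hydroxychloroquine library of plate B gave 494 genes, the lowest count of any library left out.

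The effect of SCH772984 was also fitted on each autophagy inhibitor by itself. With hydroxychloroquine 400 genes passed (3.17% of those tested, 182 or 1.44% higher and 218 or 1.73% lower). When libraries were scaled by their totals only, that split was 232 higher and 178 lower. With the Vps34 inhibitor 378 passed (2.99%, 169 or 1.34% higher and 209 or 1.66% lower). Both lists shared 152 genes, 44 higher and 108 lower, which is 38% of the hydroxychloroquine list and 40.2% of the Vps34 list. No gene called in both went in opposite directions. The 2 contrasts use different libraries but come from 1 fit, with a shared plate term and estimate of spread. Of the genes called in either, 90.5% had the same sign in the other. No share of equal signs over all genes tested is given beside it, so it is a description only. The difference between the 2 effects was itself tested. It passed for FAM171B only (0.00792% of genes), whose count comes mainly from 1 library, while 882 genes had an unadjusted p under 0.05 and DESeq2 called 19. Leaving out 1 library at a time gave 110 to 402 genes with hydroxychloroquine, the lowest without the SCH772984-Hydroxychloroquine library of plate B. With the Vps34 inhibitor it gave 142 to 391, the lowest without the SCH772984-VSP34I library of plate A.

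**Figure D1:**
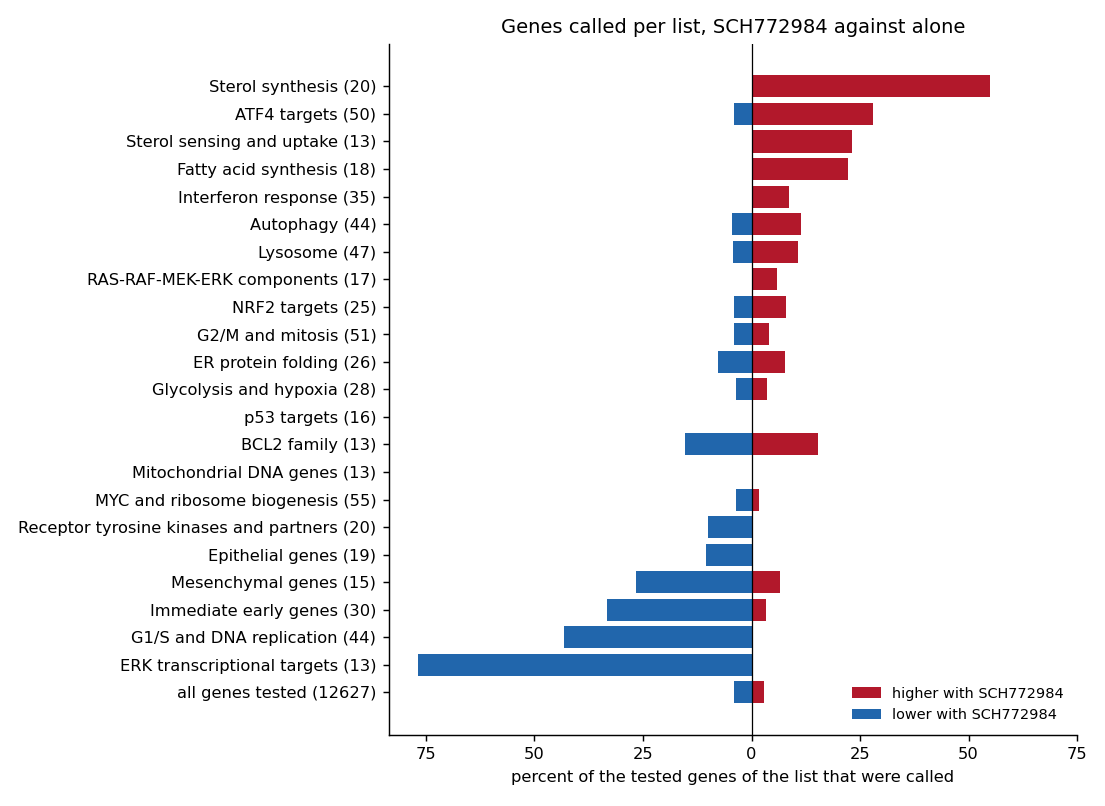
Percent of the tested genes of each list that were called higher or lower with SCH772984 than alone (edgeR adjusted p under 0.05), for lists with at least 10 tested genes and for all genes tested. ERK targets stand out on the lower side with 10 of 13 genes, and sterol synthesis on the higher side with 11 of 20, against 4.01% and 2.87% of all genes.

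The plot of the share of each list called shows lists that moved mostly one way. ERK targets, immediate early genes and G1/S genes lie on the lower side, and sterol synthesis, fatty acid synthesis and ATF4 targets on the higher side. Genes of mitochondrial DNA and targets of p53 had no call in either direction in edgeR, and 3 of 13 and 5 of 16 had an unadjusted p under 0.05. That p was under 0.05 for 2380 of all 12627 genes tested.

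Of the 13 tested ERK targets, 10 fell and none rose with SCH772984 (4.01% of all genes fell). The list's median was -1.73 on the log2 scale, against -0.01 over all genes tested. With hydroxychloroquine 9 fell, and with the Vps34 inhibitor 8 fell, beside 1.73% and 1.66% of all genes. In 7 of the 13, all 4 SCH772984 libraries lay below all 12 alone libraries, which held for 1.68% of all genes. Another 2 targets, DUSP4 and EPHA4, were too low to test, with at most 1.05 and 1.75 CPM in any of the 16 libraries. Within each plate alone 7 of the 13 fell, where 134 genes on plate A and 250 on plate B were called in either direction.

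The Sprouty and SPRED proteins restrain signalling to RAF. SPRY4 had 3.29 and 2.502 CPM with SCH772984 and hydroxychloroquine and 5.26 and 4.97 CPM with SCH772984 and the Vps34 inhibitor, against 30.1 to 61.2 CPM (median 42.5) in the alone libraries. All 4 values lay far below the lowest alone library, and the change was -3.46 ± 0.25, adjusted p = 8.9e-15. SPRED2 had 6.58, 5.23, 10.9 and 15.3 CPM with SCH772984, in the order hydroxychloroquine plates A and B and Vps34 inhibitor plates A and B, against 11.3 to 42.01 CPM (median 28.6) alone. A library with the Vps34 inhibitor passed the lowest alone library with hydroxychloroquine, but within each autophagy inhibitor the groups were apart. SPRED2 changed by -1.73 ± 0.28, adjusted p = 2e-05. SPRY2 fell by 1.92 ± 0.45 (adjusted p = 0.0031). The relatives SPRED1 and SPRED3 missed the threshold, SPRED1 at -0.48 ± 0.19, adjusted p = 0.12 and SPRED3 at -0.76 ± 0.45, adjusted p = 0.38.

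The dual specificity phosphatases remove phosphate from ERK itself. DUSP6, which acts on ERK in the cytoplasm, had 1.23 and 0.91 CPM with SCH772984 and hydroxychloroquine and 0 and 1.91 CPM with SCH772984 and the Vps34 inhibitor, against 11.7 to 22.7 CPM (median 18.4) alone. The groups did not overlap, and 1 SCH772984 library had no count. The fitted change of -4.13 ± 0.47, adjusted p = 7.2e-09 rests on few counts, and it was -6.54 without the SCH772984-VSP34I library of plate B. DUSP5, the nuclear phosphatase, changed by -1.43 ± 0.21, adjusted p = 2.3e-06.

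Among the transcription factors and growth genes of the list, PHLDA1, a pleckstrin homology domain protein, was among the lower genes. It had 46.7 and 53.9 CPM with SCH772984 and hydroxychloroquine and 56.1 and 62.7 CPM with SCH772984 and the Vps34 inhibitor, against 165 to 241 CPM (median 195) alone. The highest SCH772984 library was below the lowest alone library by a wide margin, and the change was -1.84 ± 0.10, adjusted p = 1.6e-18. The gene lies at chr12:76025447-76033932 on GRCh38. ETV5, an ETS factor that ERK induces, had 6.79 and 6.14 CPM with SCH772984 and hydroxychloroquine and 8.06 and 6.12 CPM with SCH772984 and the Vps34 inhibitor, against 22.5 to 39.7 CPM (median 29.01) alone. No library of one group reached the other, with a change of -2.12 ± 0.23, adjusted p = 1.6e-09. Its relative ETV4 was low throughout, with 0, 0.227, 0.701 and 0 CPM with SCH772984 and 1.01 to 5.33 CPM (median 1.74) alone; it fell (-3.18 ± 0.78, adjusted p = 0.0055), but not without the SCH772984-Hydroxychloroquine library of plate A or the SCH772984-VSP34I library of plate B. ETV1 was measured at -1.44 ± 0.59, adjusted p = 0.15. CCND1, the cyclin D1 gene that links growth signals to the cell cycle, had 154 and 117 CPM with SCH772984 and hydroxychloroquine and 102 and 78.4 CPM with SCH772984 and the Vps34 inhibitor, against 186 to 427 CPM (median 259) alone. The groups again did not overlap, and cyclin D1 changed by -1.26 ± 0.19, adjusted p = 4.5e-06. EPHA2, an ephrin receptor, changed by -1.53 ± 0.28, adjusted p = 0.00015 with no overlap.

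**Figure D2:**
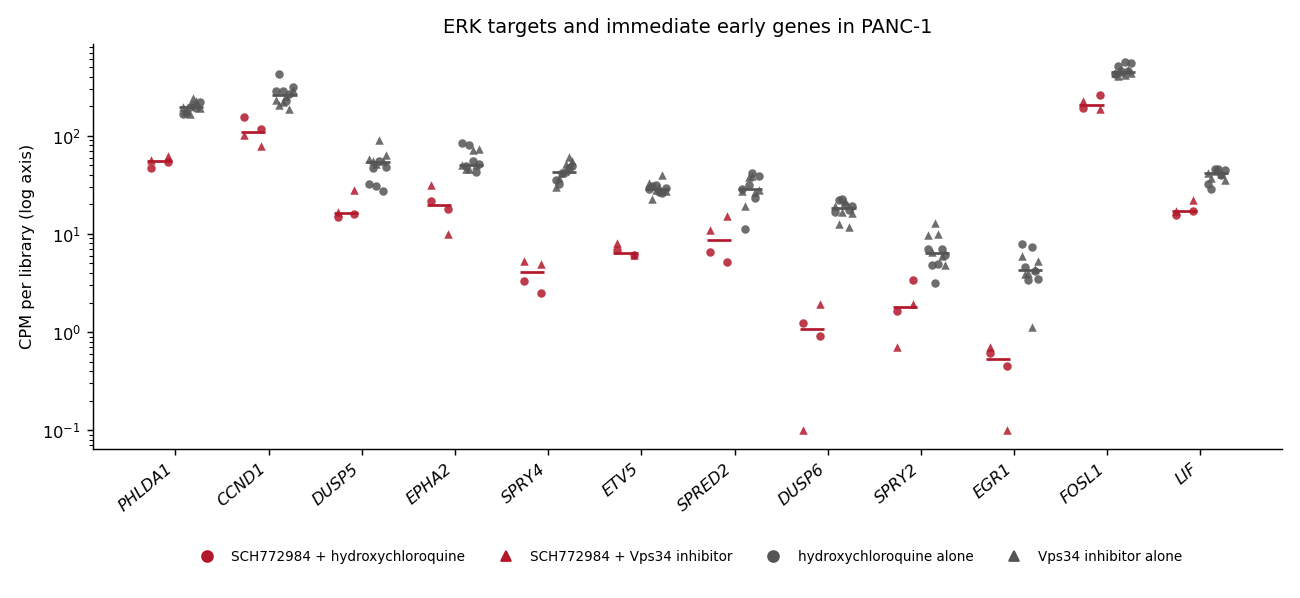
Level of 12 ERK targets and immediate early genes in each library (CPM, log axis), SCH772984 in red on the left and autophagy inhibitor alone in grey on the right of each panel. Circles are hydroxychloroquine, triangles the Vps34 inhibitor, lines medians, and libraries with no count lie at the bottom; PHLDA1 sits between 46.7 and 62.7 CPM with SCH772984 and between 165 and 241 CPM alone.

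The plot of ERK targets by library shows that the fall was present on both autophagy inhibitors and both plates for genes such as PHLDA1, SPRY4, ETV5 and FOSL1. In bulk libraries like these, fewer cells with a message and less message per cell cannot be told apart.

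Immediate early genes, which growth factors switch on within minutes, moved in the same direction. Of 30 tested, 10 fell and 1 rose (median -0.45), beside 4.01% and 2.87% of all genes. FOSL1, an AP-1 subunit stabilised by ERK, had 191 and 258 CPM with SCH772984 and hydroxychloroquine and 224 and 189 CPM with SCH772984 and the Vps34 inhibitor, against 409 to 560.4 CPM (median 449) alone. The groups did not overlap, at a change of -1.10 ± 0.10, adjusted p = 1.2e-11. LIF, a cytokine of the interleukin 6 family, had 15.4, 17.1, 17.2 and 22.2 CPM with SCH772984 and 28.7 to 46.4 CPM (median 41.6) alone, again apart (-1.17 ± 0.17, adjusted p = 2.4e-06). EGR1, a zinc finger factor, was close to its detection limit with SCH772984 at 0.617, 0.455, 0.701 and 0 CPM, against 1.12 to 7.88 CPM (median 4.295) alone, and changed by -3.28 ± 0.56, adjusted p = 4.3e-05. IER3 changed by -0.96 ± 0.16, adjusted p = 1.7e-05. ATF3, which stress also induces, was the exception among the 11 calls, higher at 0.93 ± 0.26, adjusted p = 0.021; it was picked out after its values were seen. Within plate A alone 5 of these genes fell, and within plate B alone 4, where 134 and 250 genes were called in either direction.

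Messages of the cascade itself were called about as often as all genes, of which 6.88% were called in either direction. Among 17 genes of the RAS, RAF, MEK and ERK proteins 1 rose, MAP2K2, which encodes MEK2 (0.41 ± 0.11, adjusted p = 0.015). That call was lost without either SCH772984 library of plate B. Among 20 receptor tyrosine kinases and their partners 2 fell and none rose. They were EPHB2, an ephrin receptor (-0.65 ± 0.14, adjusted p = 0.0012), and NRG1, the ligand of ERBB3 (-1.26 ± 0.29, adjusted p = 0.0027).

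Genes of cholesterol synthesis rose. Of 20 tested genes of the pathway, 11 were higher and none lower (2.87% of all genes were higher). The median of the 20 was 0.52, against -0.01 over all genes tested. With hydroxychloroquine 4 passed and with the Vps34 inhibitor 8, beside 3.17% and 2.99% of all genes, with medians of 0.54 in both. Within plate A alone 2 passed and within plate B alone 4, with medians of 0.52 and 0.57. These plate fits called 134 and 250 genes in all. The count was 7 without the SCH772984-VSP34I library of plate B. In 7 of the 20 genes, both SCH772984 libraries lay above every alone library with the same autophagy inhibitor, which held for 178 of all 12627 genes. In 1 of them, all 4 lay above all 12, which held for 0.626% of all genes.

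The pathway starts from acetyl-CoA. ACAT2, which joins the first pair of acetyl-CoA molecules, had 332 and 206 CPM with SCH772984 and hydroxychloroquine and 123 and 102 CPM with SCH772984 and the Vps34 inhibitor, against 54.5 to 165 CPM (median 94.7) alone. Within each autophagy inhibitor the groups were apart, while levels were higher with hydroxychloroquine throughout; the change was 0.88 ± 0.12, adjusted p = 5.2e-07. HMGCS1, the HMG-CoA synthase, had 26.7, 35.03, 22.4 and 19.9 CPM with SCH772984 and 6.07 to 22.9 CPM (median 15.5) alone. It also separated within each inhibitor (0.73 ± 0.16, adjusted p = 0.0012). MVK, the mevalonate kinase, stood at 0.92 ± 0.27, adjusted p = 0.027, and its call was lost without any 1 of the 4 SCH772984 libraries.

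The isoprenoid and squalene steps rose as well. IDI1, the isopentenyl diphosphate isomerase, changed by 0.72 ± 0.13, adjusted p = 6.5e-05. FDFT1, squalene synthase, had 123, 131, 88.99 and 96.4 CPM with SCH772984 and 47.9 to 114 CPM (median 69.1) alone, apart within each inhibitor (0.58 ± 0.10, adjusted p = 5.9e-05). FDPS, farnesyl diphosphate synthase, changed by 0.46 ± 0.13, adjusted p = 0.019 and LSS, lanosterol synthase, by 0.56 ± 0.16, adjusted p = 0.019. FDPS was lost without either plate B library of SCH772984. LSS was lost without the SCH772984-Hydroxychloroquine library of plate A or the SCH772984-VSP34I library of plate B.

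Late enzymes shape the sterol ring. TM7SF2, a sterol reductase that removes the double bond at carbon C14, had 77.6 and 65.1 CPM with SCH772984 and hydroxychloroquine and 69.7 and 69.6 CPM with SCH772984 and the Vps34 inhibitor, against 30.2 to 52.5 CPM (median 39.4) alone. It was the gene of this list whose groups did not overlap at all, with a change of 0.83 ± 0.10, adjusted p = 2.2e-08 at chr11:65111845-65116384 on GRCh38. MSMO1, which takes methyl groups off the ring, had 496, 475, 303 and 247 CPM with SCH772984 and 176 to 447 CPM (median 264) alone. Its alone level with hydroxychloroquine was above that of SCH772984 with the Vps34 inhibitor, but it separated within each inhibitor (0.48 ± 0.10, adjusted p = 0.00051). DHCR7, the last enzyme, changed by 0.73 ± 0.23, adjusted p = 0.044, and passed in only 2 of 16 fits that each left out 1 library. The other 9 genes of the list missed the threshold, at -0.31 (PMVK) to 0.61 (MVD).

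Fatty acid synthesis moved less broadly. Of 18 tested genes 4 rose and none fell (median 0.36), beside 2.87% and 4.01% of all genes. SCD, the desaturase that makes monounsaturated fatty acids, had 815 and 896 CPM with SCH772984 and hydroxychloroquine and 542 and 539.6 CPM with SCH772984 and the Vps34 inhibitor, against 218 to 427 CPM (median 342) alone. Every SCH772984 library lay above every alone library, and the change was 1.06 ± 0.10, adjusted p = 5.4e-11. SCD lies at chr10:100347124-100364834 on GRCh38. FASN, the fatty acid synthase, changed by 0.51 ± 0.12, adjusted p = 0.0036, a call lost without the SCH772984-VSP34I library of plate A. The desaturases of polyunsaturated fatty acids changed by 0.52 ± 0.09, adjusted p = 0.00012 for FADS1 and 0.70 ± 0.19, adjusted p = 0.016 for FADS2. FADS2 was lost without any 1 SCH772984 library but that of the Vps34 inhibitor on plate A.

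Of 13 tested genes of sterol sensing and uptake 3 rose (median 0.32), beside 2.87% of all genes. The number that rose was 1 without the SCH772984-Hydroxychloroquine library of plate A. Within either plate alone none of them passed in the edgeR fit. INSIG1, which holds SREBP in the endoplasmic reticulum and is itself an SREBP target, had 176 and 129 CPM with SCH772984 and hydroxychloroquine and 169.6 and 110.1 CPM with SCH772984 and the Vps34 inhibitor, against 49.4 to 228 CPM (median 85.4) alone. The groups overlapped, at 0.71 ± 0.15, adjusted p = 0.00072 over both inhibitors, a call lost without the SCH772984-VSP34I library of plate A. Its change was 0.13 ± 0.21 with hydroxychloroquine and 1.28 ± 0.20 with the Vps34 inhibitor, and the difference of 1.15 ± 0.30 between them had an adjusted p of 0.23. NPC2, which carries cholesterol out of the lysosome, had 123, 93.05, 128 and 109.7 CPM with SCH772984 and 73.5 to 90.2 CPM (median 84.7) alone, with no overlap (0.43 ± 0.09, adjusted p = 0.00088); its call was lost without the SCH772984-Hydroxychloroquine library of plate A. SREBF2, which encodes the SREBP-2 factor, had 24.5, 24.3, 17.9 and 15.7 CPM with SCH772984 and 5.27 to 24.3 CPM (median 10.4) alone. These ranges overlapped, and the call (0.81 ± 0.24, adjusted p = 0.029) was lost without any 1 of the 4 libraries. SREBF1 stood at 0.41 ± 0.19, adjusted p = 0.23. SREBF1 was picked out after its values were seen.

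The start sites of genes from these lists are shown because 18 genes of the lists were called higher. Promoter windows of 300 bases, from 250 before to 50 after the annotated start, were taken from RefSeq on GRCh38.p14. They were searched on both strands for a sterol regulatory element of 10 letters, the kind of site SREBP itself binds, for its first 9 letters, and for CCAAT, the box bound by NF-Y, a partner of SREBP. CCAAT and the windows shown were chosen after the data were seen, and each window shown holds CCAAT. The windows run 5′ to 3′ on the strand of the gene, and capitals mark CCAAT, or ATTGG where it lies on the other strand. No marked matches overlap.
SREBF2 promoter, chr22:41832855-41833154, plus strand: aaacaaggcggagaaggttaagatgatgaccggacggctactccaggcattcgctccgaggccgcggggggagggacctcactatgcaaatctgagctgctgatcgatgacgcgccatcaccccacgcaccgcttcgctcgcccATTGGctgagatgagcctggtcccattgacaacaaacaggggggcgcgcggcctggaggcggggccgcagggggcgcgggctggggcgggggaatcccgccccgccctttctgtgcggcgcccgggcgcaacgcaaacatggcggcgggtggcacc
HMGCS1 promoter, chr5:43313363-43313662, minus strand: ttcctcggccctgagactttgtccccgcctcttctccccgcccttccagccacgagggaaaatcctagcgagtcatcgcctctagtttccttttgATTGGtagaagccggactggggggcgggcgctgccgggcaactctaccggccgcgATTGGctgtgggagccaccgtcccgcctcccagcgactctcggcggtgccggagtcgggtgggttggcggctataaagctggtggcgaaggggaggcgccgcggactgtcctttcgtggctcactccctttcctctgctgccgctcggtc
MSMO1 promoter, chr4:165327419-165327718, plus strand: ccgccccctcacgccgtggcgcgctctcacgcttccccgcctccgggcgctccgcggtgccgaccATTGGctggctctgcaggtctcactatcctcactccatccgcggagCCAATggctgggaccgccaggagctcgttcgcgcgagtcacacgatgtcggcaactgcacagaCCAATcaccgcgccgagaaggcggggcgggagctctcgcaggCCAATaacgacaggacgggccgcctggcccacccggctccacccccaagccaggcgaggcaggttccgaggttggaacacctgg
TM7SF2 promoter, chr11:65111622-65111921, plus strand: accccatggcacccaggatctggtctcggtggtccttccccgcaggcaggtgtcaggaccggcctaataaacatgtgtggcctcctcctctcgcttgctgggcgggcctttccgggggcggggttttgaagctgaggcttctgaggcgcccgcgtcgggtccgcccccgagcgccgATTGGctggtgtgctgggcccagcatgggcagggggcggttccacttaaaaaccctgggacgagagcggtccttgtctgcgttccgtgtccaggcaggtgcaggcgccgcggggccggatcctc
SCD promoter, chr10:100346983-100347282, plus strand: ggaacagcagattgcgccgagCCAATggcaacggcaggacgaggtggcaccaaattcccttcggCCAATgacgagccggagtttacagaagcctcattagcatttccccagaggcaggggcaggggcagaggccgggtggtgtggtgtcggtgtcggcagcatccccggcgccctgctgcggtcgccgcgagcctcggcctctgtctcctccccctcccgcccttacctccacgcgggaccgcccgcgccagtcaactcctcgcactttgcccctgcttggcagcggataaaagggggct
HMGCS1 has a second annotated start, with the window chr5:43313132-43313431, which holds no CCAAT. The sterol element was in 0 of 20 promoters of sterol synthesis genes, 0 of 21 of fatty acid synthesis genes and 1 of 18 of sterol sensing and uptake genes, that of SREBF2, beside 0.0456% of all 35116 promoters of the table. Its first 9 letters gave the same counts in the lists, beside 0.219% of all promoters. CCAAT occurred in 34.6% of all promoters. It was found in 15 of 20 promoters of sterol synthesis genes (75%), which belong to 13 of the 15 genes in the table. It was in 11 of 21 promoters of fatty acid synthesis genes (52.4%), 7 of 18 of sterol sensing and uptake genes (38.9%) and 8 of 20 of ERK targets (40%). On either strand, the ETS motif CCGGAAGT was in 4.14% of all promoters and in 0 of the 20 promoters found for 10 ERK targets. These letters describe the windows and do not show binding.

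The second comparison asks where SCH772984 differed from the other 3 ERK inhibitors, and the lipid genes were followed first. Against the mean of the 3, 58 genes passed (0.459% of genes tested), 48 (0.38%) higher and 10 (0.0792%) lower, and 1291 had an unadjusted p under 0.05. None of the 51 lipid genes tested was among them in edgeR, 14 of them had an unadjusted p under 0.05, and DESeq2 called 2 of sterol synthesis, 1 of fatty acid synthesis and 1 of sterol sensing and uptake. The 20 sterol synthesis genes had a median of 0.27 and the 18 fatty acid genes of 0.20. The nearest to the threshold were FADS1 (0.37 ± 0.09, adjusted p = 0.059), TM7SF2 (0.38 ± 0.10, adjusted p = 0.076) and MSMO1 (0.35 ± 0.10, adjusted p = 0.098).

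Taken one by one, the 3 drugs differed in how SCH772984 compared with them, and p-values are adjusted over all genes within each of these 3 pairs. Against ulixertinib 466 genes passed (3.69% of genes tested, 293 or 2.32% higher and 173 or 1.37% lower), and 290 without the Ulixertinib-VSP34I library of plate A. Of 20 sterol synthesis genes 9 were higher and none lower with SCH772984 (median 0.53). ACAT2 had 332, 206, 123 and 102 CPM with SCH772984 and 34.8 to 135 CPM with ulixertinib, a difference of 1.21 ± 0.16, adjusted p = 1.9e-07. HMGCS1 differed by 1.00 ± 0.20, adjusted p = 0.00095, and IDI1 by 0.90 ± 0.16, adjusted p = 0.00018. MSMO1 differed by 0.75 ± 0.12, adjusted p = 3e-05, FDFT1 by 0.73 ± 0.13, adjusted p = 0.00012 and TM7SF2 by 0.69 ± 0.13, adjusted p = 0.00026. The calls of FDPS (0.67 ± 0.16, adjusted p = 0.0088) and EBP (0.57 ± 0.16, adjusted p = 0.032), a sterol isomerase, held in 4 and 1 of 8 fits that left out a library. FADS1 (0.72 ± 0.12, adjusted p = 3.9e-05) and FADS2 (0.91 ± 0.25, adjusted p = 0.023) were also higher. SCD was not called different, at 0.13 ± 0.13 with a 95% interval of -0.14 to 0.39. All genes named for this pair were picked out after their values were seen.

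Against AZD0364 12 genes passed in all (0.095%, with 0.0554% higher and 0.0396% lower) and none without the AZD0364-Hydroxychloroquine library of plate B. None was in the lipid lists in edgeR, and the sterol synthesis median was -0.01. Of the 51 lipid genes, 5 had an unadjusted p under 0.05, beside 999 of all 12627 genes. The 95% intervals of single genes bound the difference: ACAT2 -0.44 to 0.17, HMGCS1 -0.21 to 0.58, TM7SF2 -0.11 to 0.40 and MSMO1 -0.12 to 0.36 on the log2 scale. For SCD it was 0.00 to 0.53 (adjusted p = 0.62). Against ravoxertinib 54 genes passed (0.428%, with 0.158% higher and 0.269% lower), and 17 without the SCH772984-Hydroxychloroquine library of plate B. Again none was in the lipid lists, with a sterol synthesis median of 0.12. Of the 51 lipid genes, 9 had an unadjusted p under 0.05, beside 1448 of all 12627 genes. TM7SF2 stood at 0.31 ± 0.13 with an interval of 0.05 to 0.56 (adjusted p = 0.3). The interval of ACAT2 was -0.25 to 0.37, that of HMGCS1 -0.10 to 0.69 and that of SCD -0.10 to 0.43.

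Set beside each other against the same 12 alone libraries, the 4 drugs had different counts for sterol synthesis. SCH772984 had 11 of 20 higher, ulixertinib 0 (median -0.07), AZD0364 14 (median 0.47) and ravoxertinib 7 (median 0.43). These comparisons share their alone libraries. The share of all genes called against alone, in either direction, was 6.88% with SCH772984, 14.6% with ulixertinib, 5.24% with AZD0364 and 4.36% with ravoxertinib. Calls in the higher direction made up 2.87% with SCH772984, 6.72% with ulixertinib, 2.27% with AZD0364 and 1.8% with ravoxertinib. ACAT2 changed by 0.88 ± 0.12 with SCH772984, -0.34 ± 0.13 with ulixertinib, 1.01 ± 0.12 with AZD0364 and 0.82 ± 0.12 with ravoxertinib. SCD changed by 1.06 ± 0.10 with SCH772984, 0.93 ± 0.10 with ulixertinib, 0.79 ± 0.10 with AZD0364 and 0.89 ± 0.10 with ravoxertinib.

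**Figure D3:**
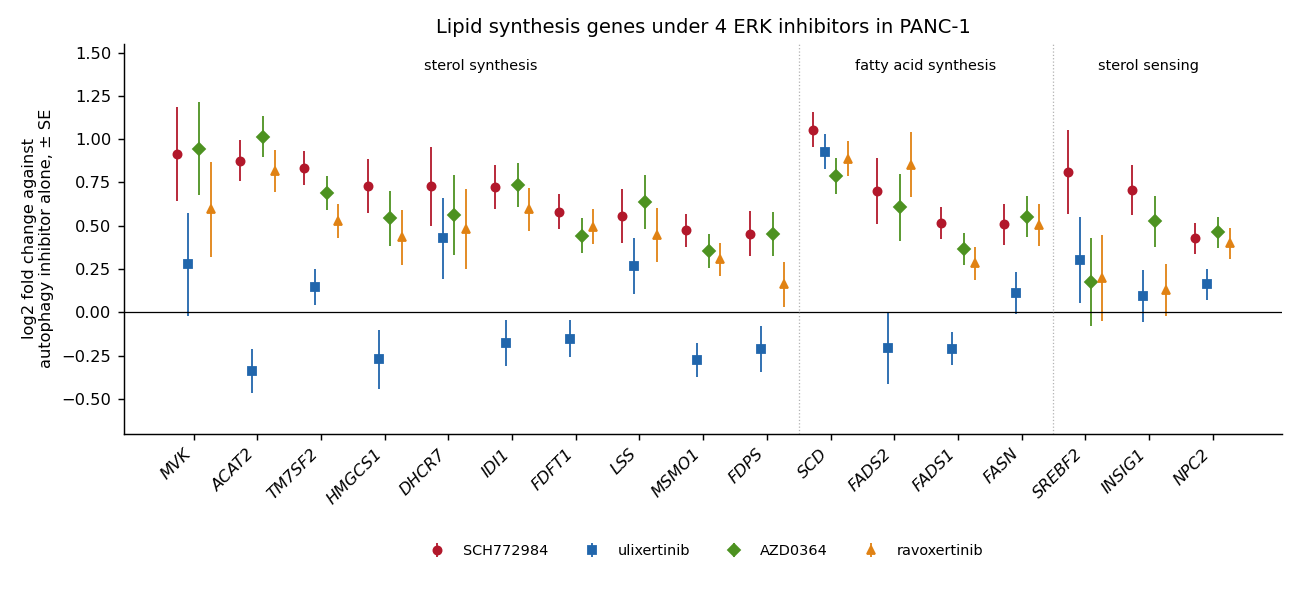
Log2 fold change against autophagy inhibitor alone, with its standard error, of 17 of the 18 lipid genes called with SCH772984, drawn for SCH772984, ulixertinib, AZD0364 and ravoxertinib (4 libraries each against the same 12). ACAT2 lies at 0.88 with SCH772984 and below 0 with ulixertinib, while SCD lies above 0 with all 4 drugs.

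The plot of lipid genes by drug was drawn for genes chosen by SCH772984, so SCH772984 lies above 0 in all 17 by construction. In it ulixertinib sits apart from the other drugs for sterol synthesis genes such as ACAT2, HMGCS1 and IDI1, and among them for SCD. SCH772984 was not called different from ulixertinib for DHCR7 (0.30 ± 0.29), LSS (0.29 ± 0.20) or MVK (0.64 ± 0.35).

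The ERK targets were set side by side for the 4 drugs. Ulixertinib lowered 12 of the 13, AZD0364 12 and ravoxertinib 7 against alone, with medians of -1.53, -1.59 and -1.10, where 7.88%, 2.97% and 2.57% of all genes were lower. Against the mean of the 3, 1 of the 13 ERK targets differed (0.459% of all genes did). PHLDA1 was lower with SCH772984 at 46.7, 53.9, 56.1 and 62.7 CPM, against 56.5 to 89.5 CPM with ulixertinib, 59.9 to 84.4 with AZD0364 and 64.6 to 108 with ravoxertinib. Its difference was -0.49 ± 0.10, adjusted p = 0.0045, and the call was lost in a fit without plate as a term (adjusted p = 0.16). Taken singly it was -0.65 ± 0.11, adjusted p = 0.00098 against ravoxertinib, -0.38 ± 0.12, adjusted p = 0.046 against ulixertinib and -0.42 ± 0.12 against AZD0364 (95% interval -0.66 to -0.19, adjusted p = 0.15). The ulixertinib call was lost in each of 8 fits that left out a library. Against ravoxertinib ETV5 was also lower (-1.29 ± 0.26, adjusted p = 0.0058), while SPRY4 missed the threshold (-1.02 ± 0.28, adjusted p = 0.075). FOSL1, an immediate early gene, was lower than with ravoxertinib as well (-0.78 ± 0.12, adjusted p = 6.4e-05).

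Genes of the G1/S transition and DNA replication fell. Of 44 tested, 19 were lower and none higher with SCH772984 than alone (4.01% of all genes were lower), with a median of -0.48. With hydroxychloroquine 9 were lower and with the Vps34 inhibitor 6, beside 1.73% and 1.66% of all genes. Within plate A alone 1 was lower and within plate B alone 4, where 134 and 250 genes were called in either direction. CHAF1A, a subunit of the factor that loads histones onto new DNA, had 16.05 and 14.8 CPM with SCH772984 and hydroxychloroquine and 10.9 and 10.3 CPM with SCH772984 and the Vps34 inhibitor, against 21.6 to 32.8 CPM (median 26.3) alone. No SCH772984 library reached the alone range (-1.04 ± 0.17, adjusted p = 2e-05). GINS2, part of the replicative helicase, had 12.8, 15.2, 12.96 and 13.8 CPM with SCH772984 and 19.1 to 38.995 CPM (median 27.9) alone, also apart (-0.98 ± 0.17, adjusted p = 3.8e-05). MCM3, another helicase subunit, changed by -0.78 ± 0.11, adjusted p = 7e-07. E2F1, the factor that drives many of these genes, had 7.41, 7.05, 3.85 and 3.82 CPM with SCH772984 and 8.67 to 16.4 CPM (median 13.6) alone, with no overlap (-1.26 ± 0.26, adjusted p = 0.00053). E2F1 was picked out after its values were seen.

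Of 51 genes of G2/M and mitosis 2 rose and 2 fell, with a median of 0.05 (2.87% of all genes rose and 4.01% fell). TOP2A, the topoisomerase that untangles chromosomes, changed by 0.60 ± 0.17, adjusted p = 0.016 and KPNA2, a nuclear import factor, by 0.50 ± 0.15, adjusted p = 0.024. ECT2, which drives cytokinesis, changed by -0.58 ± 0.15, adjusted p = 0.011 and SPC25, a kinetochore protein, by -0.32 ± 0.09, adjusted p = 0.025. Each of the 4 calls was lost without at least 2 of the SCH772984 libraries.

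G2/M genes separated SCH772984 from ulixertinib. Of the 51 G2/M genes, 12 were higher with SCH772984 than with the mean of the other 3 (0.38% of all genes were higher), and the median was 0.42. This count was 4 without the SCH772984-Hydroxychloroquine library of plate B, 7 without the SCH772984-Hydroxychloroquine library of plate A or the SCH772984-VSP34I library of plate B, 21 with DESeq2, and 0 within either plate. Against ulixertinib 43 of 51 were higher and none lower (median 1.31), where 2.32% of all genes were higher. CCNB1, the mitotic cyclin B1, had 231, 214, 239 and 182 CPM with SCH772984, against 54.2 to 143 CPM with ulixertinib, 202 to 228 with AZD0364 and 222 to 249 with ravoxertinib. It was above all 4 ulixertinib libraries and within or near the range of the other drugs. The difference was 1.31 ± 0.11, adjusted p = 2.1e-12 against ulixertinib, and 0.01 ± 0.11 against AZD0364 with a 95% interval of -0.21 to 0.22. KIF2C, a motor that corrects chromosome attachment, differed from ulixertinib by 1.71 ± 0.13, adjusted p = 2.1e-13. Against AZD0364 no G2/M gene passed in edgeR, 4 had an unadjusted p under 0.05 (999 of all 12627 genes did), and the median was 0.07. Against alone, ulixertinib lowered 48 of the 51 (7.88% of all genes were lower) with a median of -1.21, beside the median of 0.05 for SCH772984 from the same alone libraries.

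For G1/S genes the order differed. SCH772984 was higher than ulixertinib in 8 of 44 and lower in none (median 0.45, beside 2.32% of all genes higher). It was lower than AZD0364 in 1 (median -0.17, beside 0.0396% of all genes lower). Against ravoxertinib 7 were lower and none higher (median -0.47, beside 0.269% of all genes lower). RRM2, the ribonucleotide reductase subunit that supplies DNA precursors, had 145 and 141 CPM with SCH772984 and hydroxychloroquine and 125 and 121 CPM with SCH772984 and the Vps34 inhibitor. It had 39.2 to 66.1 CPM with ulixertinib, 176 to 227 with AZD0364, 255 to 319 with ravoxertinib and 135 to 202 CPM (median 172) alone. SCH772984 lay above all ulixertinib libraries and below all AZD0364 and ravoxertinib libraries. The differences were 1.42 ± 0.12, adjusted p = 5.6e-12 against ulixertinib, -1.07 ± 0.12, adjusted p = 1.1e-07 against ravoxertinib and -0.57 ± 0.12, adjusted p = 0.022 against AZD0364, the last lost in each of 8 fits that left out a library. Against ravoxertinib GINS2 (-1.10 ± 0.19, adjusted p = 0.00098), CDC6, which loads the helicase (-1.06 ± 0.23, adjusted p = 0.014), PCNA, the sliding clamp (-0.65 ± 0.12, adjusted p = 0.0025) and FEN1, the flap nuclease (-0.79 ± 0.18, adjusted p = 0.028), were also lower. MCM3 differed by -0.51 ± 0.13, adjusted p = 0.049. The cell cycle genes of these 3 pairs were named after their values were seen.

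**Figure D4:**
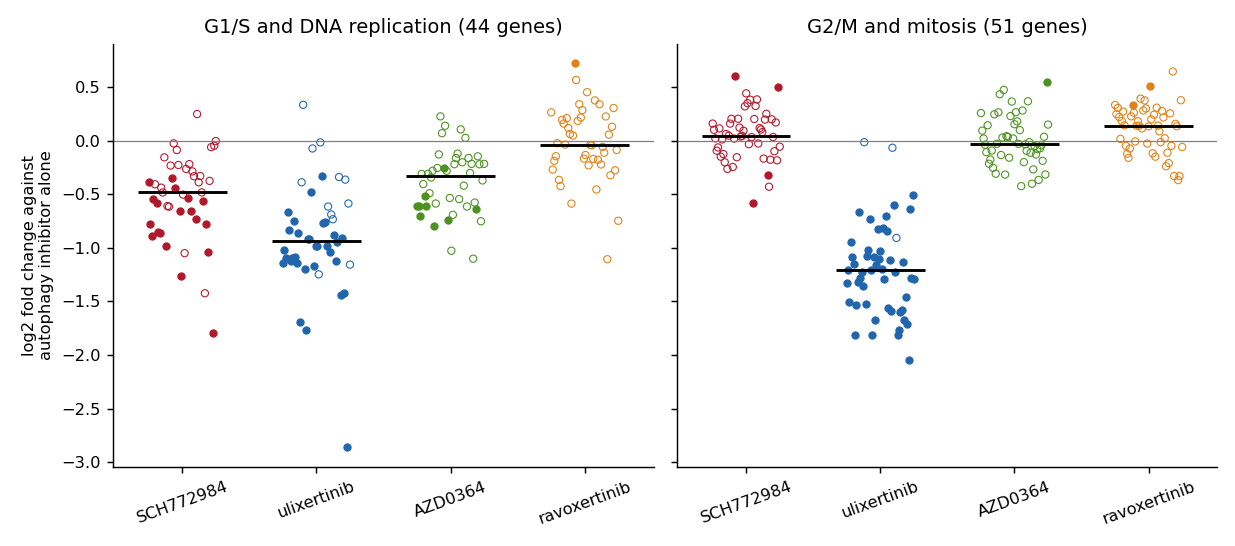
Log2 fold change against autophagy inhibitor alone of 44 G1/S and 51 G2/M genes with SCH772984, ulixertinib, AZD0364 and ravoxertinib, 1 point per gene, filled where called, with a black line at the median. The G2/M medians are 0.05 with SCH772984, -1.21 with ulixertinib, -0.03 with AZD0364 and 0.14 with ravoxertinib.

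The plot of cell cycle genes by drug puts SCH772984 between ulixertinib and ravoxertinib for G1/S, at a median of -0.48 beside -0.93, -0.33 and -0.04 for ulixertinib, AZD0364 and ravoxertinib. The shared alone libraries tie these medians to each other.

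Targets of ATF4, the factor of the amino acid and integrated stress response, rose in part. Of 50 tested, 14 rose and 2 fell (median 0.28), beside 2.87% and 4.01% of all genes. The number that rose was 7 without the SCH772984-VSP34I library of plate A and 9 without either SCH772984-Hydroxychloroquine library, and within the plates it was 4 and 6. PSAT1, an enzyme of serine synthesis, had 226 and 213 CPM with SCH772984 and hydroxychloroquine and 674 and 609 CPM with SCH772984 and the Vps34 inhibitor, against 131 to 368 CPM (median 239) alone. Within each inhibitor both libraries lay above all alone libraries. The change was 0.72 ± 0.09, adjusted p = 1.1e-07 over both, 0.40 ± 0.13 with hydroxychloroquine and 1.03 ± 0.13 with the Vps34 inhibitor, and that difference had an adjusted p of 0.39. NUPR1, a stress-induced nuclear protein, had 23.5, 34.8, 76.7 and 90.2 CPM with SCH772984 and 7.18 to 36.4 CPM (median 20.1) alone, apart within each inhibitor (1.36 ± 0.18, adjusted p = 4.7e-07). ASNS, asparagine synthetase, changed by 0.82 ± 0.13, adjusted p = 5.8e-06. GDF15, a secreted stress signal, went the other way. It had 23.2, 20.02, 30.5 and 34.8 CPM with SCH772984 and 73.5 to 341 CPM (median 99.6) alone, with no overlap (-2.25 ± 0.26, adjusted p = 1.7e-08). Against ulixertinib, 16 of the 50 were lower with SCH772984 and 1 higher, beside 1.37% and 2.32% of all genes. Examples chosen after their values were seen are CHAC1, which degrades glutathione (-1.29 ± 0.18, adjusted p = 1.4e-06), TRIB3, a pseudokinase (-1.23 ± 0.21, adjusted p = 5.6e-05), and ATF4 itself (-0.60 ± 0.11, adjusted p = 0.0003).

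Other stress lists are given beside the 2.87% of all genes that rose and the 4.01% that fell. Of 26 chaperones and folding factors of the secretory pathway 2 rose and 2 fell, among them HSPA5, the main chaperone of the endoplasmic reticulum (0.47 ± 0.09, adjusted p = 0.00018), and MANF (-0.76 ± 0.21, adjusted p = 0.019). HSPA5 changed by 0.04 ± 0.13 with hydroxychloroquine and 0.90 ± 0.12 with the Vps34 inhibitor, a difference of 0.86 ± 0.18 with an adjusted p of 0.06. The HSPA5 call over both held without each library, while MANF was lost without any 1 of the 4 SCH772984 libraries. Of 25 NRF2 targets 2 rose and 1 fell. The fall was in ABCC3, an export pump (-0.85 ± 0.16, adjusted p = 0.00013). HMOX1, heme oxygenase, stood at 0.68 ± 0.21, adjusted p = 0.031, and its call was lost without the SCH772984-Hydroxychloroquine library of plate A or the SCH772984-VSP34I library of plate B. Of 28 genes of glycolysis and hypoxia 1 rose and 1 fell, the fall being PFKP, a phosphofructokinase (-0.53 ± 0.12, adjusted p = 0.002).

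In the BCL2 family, which sets the threshold of apoptosis, 2 of 13 genes rose and 2 fell, beside 2.87% and 4.01% of all genes. BMF, which binds and blocks survival members, had 2.26 and 3.64 CPM with SCH772984 and hydroxychloroquine and 1.401 and 2.68 CPM with SCH772984 and the Vps34 inhibitor, against 0 to 0.867 CPM (median 0.223) alone. It was near its detection limit alone, and each SCH772984 library lay above all 12 (2.997 ± 0.56, adjusted p = 0.00019). BCL2A1, a survival member, had 3.497, 5.23, 1.75 and 3.44 CPM with SCH772984 and 6.33 to 18.7 CPM (median 14.3) alone, with no overlap (-2.03 ± 0.31, adjusted p = 4.4e-06). MCL1, the short-lived survival member, had 9.67, 12.7, 8.41 and 9.18 CPM with SCH772984 and 16.5 to 29.96 CPM (median 20.4) alone, again apart (-1.15 ± 0.21, adjusted p = 0.0001). BAD changed by 0.42 ± 0.12, adjusted p = 0.028, lost without any 1 SCH772984 library but that of the Vps34 inhibitor on plate B. None of the 13 passed against the mean of the other 3 ERK inhibitors in edgeR, and 3 had an unadjusted p under 0.05. That p was under 0.05 for 1291 of all 12627 genes. BMF differed by 0.04 ± 0.59 from ulixertinib, 1.58 ± 0.66 from AZD0364 (adjusted p = 0.53) and 3.46 ± 0.90 from ravoxertinib (adjusted p = 0.063).

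Autophagy and lysosome genes are given beside the same 2.87% of all genes that rose and 4.01% that fell. Of 44 autophagy genes 5 rose and 2 fell (median 0.02). GABARAP, which is coupled to lipid on the growing autophagosome, had 187 and 177 CPM with SCH772984 and hydroxychloroquine and 266 and 259 CPM with SCH772984 and the Vps34 inhibitor, against 117 to 169.7 CPM (median 142) alone. All 4 values lay above the alone range (0.61 ± 0.09, adjusted p = 4.8e-06). MAP1LC3A, a relative of GABARAP, changed by 0.77 ± 0.16, adjusted p = 0.00093 and CALCOCO2, a cargo receptor, by 0.68 ± 0.12, adjusted p = 4.7e-05. ATG7, which activates GABARAP and LC3, changed by -0.79 ± 0.20, adjusted p = 0.0076; its call was lost without the SCH772984-VSP34I library of plate A or the SCH772984-Hydroxychloroquine library of plate B. The number that rose was 3 without either of those libraries, and 0 and 1 within the plates. Of 47 lysosome genes 5 rose and 2 fell (median 0.08). PSAP, a precursor of sphingolipid activators, changed by 0.46 ± 0.11, adjusted p = 0.0057, and the protease genes CTSC and CTSL by -0.70 ± 0.18, adjusted p = 0.0065 and -0.53 ± 0.13, adjusted p = 0.0073. PSAP and CTSC were lost without the SCH772984-Hydroxychloroquine library of plate B, CTSC also without the SCH772984-VSP34I library of plate A, and CTSL without the SCH772984-Hydroxychloroquine library of plate A. The number of lysosome genes that rose was 0 without the SCH772984-Hydroxychloroquine library of plate B and 3 without any of the other 3 SCH772984 libraries. It was 0 within plate A and 1 within plate B, where 134 and 250 genes were called in either direction.

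Of 35 interferon response genes 3 rose and none fell (median 0.29), beside 2.87% and 4.01% of all genes. IFIT1, an RNA-binding antiviral protein, changed by 1.66 ± 0.29, adjusted p = 4.9e-05, ISG15, a ubiquitin-like modifier, by 0.72 ± 0.15, adjusted p = 0.00053 and IRF9 by 0.68 ± 0.18, adjusted p = 0.013. ISG15 was lost without the SCH772984-Hydroxychloroquine library of plate B, and IRF9 without either SCH772984 library of plate A. Within plate A 1 passed and within plate B 0, where 134 and 250 genes were called in all. Against the mean of the other 3 ERK inhibitors none passed in edgeR, while 12 had an unadjusted p under 0.05, with a median of 0.30. Over all 12627 genes, 1291 had such a p. Genes of ribosome biogenesis under MYC were called about as often as all genes, of which 6.88% were called in either direction. Of 55 tested, 1 rose and 2 fell (median -0.12). The rise, GAR1 (0.93 ± 0.30, adjusted p = 0.049), was -0.0281 without the SCH772984-VSP34I library of plate B. EBNA1BP2, a ribosome assembly factor, changed by -0.49 ± 0.12, adjusted p = 0.0054, lost without the SCH772984-VSP34I library of plate A or the SCH772984-Hydroxychloroquine library of plate B.

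Among genes of cell identity, KRT18, a keratin of simple epithelia, had 303 and 253 CPM with SCH772984 and hydroxychloroquine and 231 and 224 CPM with SCH772984 and the Vps34 inhibitor, against 412 to 578 CPM (median 497) alone. The groups did not overlap (-0.99 ± 0.08, adjusted p = 8.2e-14). It is 1 of 2 of 19 epithelial genes that fell, beside AGR2, a secretory protein folding factor (-0.46 ± 0.10, adjusted p = 0.0016), while none rose. Of 15 mesenchymal genes 4 fell and 1 rose. The epithelial and mesenchymal counts stand beside 4.01% of all genes that fell and 2.87% that rose. CD44, a hyaluronan receptor, changed by -0.43 ± 0.08, adjusted p = 7.1e-05 and VIM, vimentin, by -0.35 ± 0.07, adjusted p = 0.00054. COL1A1, a collagen chain, was the gene that rose (0.52 ± 0.13, adjusted p = 0.0054), a call lost without the SCH772984-VSP34I library of plate A. The fibroblast markers FAP and PDGFRB had no count in these libraries. The AGR2 call was lost without the SCH772984-Hydroxychloroquine library of plate B. KRT18, CD44 and VIM also belong to the PANC-1 markers whose summed levels are given above.

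The largest changes were taken from genes that averaged at least 4 on the log2 CPM scale and whose libraries separated within each autophagy inhibitor, which leaves out low genes such as BMF. Among these MAP2 rose most. MAP2, a microtubule-associated protein best known from neurons, had 97.5 and 90.3 CPM with SCH772984 and hydroxychloroquine and 71.8 and 71.5 CPM with SCH772984 and the Vps34 inhibitor, against 24.7 to 38.7 CPM (median 29.2) alone. Its lowest SCH772984 library was above the highest alone library by a wide margin (1.45 ± 0.10, adjusted p = 2.4e-15, chr2:209424058-209734118). UCP2, a carrier of the inner mitochondrial membrane, had 492, 439, 604 and 458 CPM with SCH772984 and 156 to 267 CPM (median 194) alone, also apart (1.34 ± 0.10, adjusted p = 1e-13). CSF1, the macrophage growth factor, had 96.3, 105, 83.7 and 75.7 CPM with SCH772984 and 21.3 to 49.8 CPM (median 34.97) alone, again with no overlap (1.29 ± 0.12, adjusted p = 1.2e-11). OLFML2A was second by size among the same genes at 1.38 ± 0.21, adjusted p = 4.3e-06, but 1 library carried much of it: it had 118, 26.4, 35.4 and 17.6 CPM with SCH772984 and 8.23 to 24.3 CPM (median 16.2) alone, and a change of 0.72 without the SCH772984-Hydroxychloroquine library of plate A. The remaining rises of the 12 were NUPR1 and SCD, given above, and TLCD2, PNRC1, MRAS, NANOS1, SMIM14 and LHPP at 1.04 to 1.24.

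ITGA2, the collagen-binding integrin subunit, fell among the most. It had 6.17 and 5.46 CPM with SCH772984 and hydroxychloroquine and 7.01 and 7.65 CPM with SCH772984 and the Vps34 inhibitor, against 26.1 to 50.9 CPM (median 30.3) alone, with a wide gap between the groups (-2.34 ± 0.24, adjusted p = 5.4e-10). NT5E, the CD73 ectoenzyme that makes adenosine, had 25.5, 30.5, 26.6 and 32.1 CPM with SCH772984 and 82.3 to 155 CPM (median 117) alone, with no overlap (-2.01 ± 0.16, adjusted p = 1.1e-13, chr6:85449584-85495791). Further falls among the 12 were PITPNC1, SEMA4B, NKX6-2, TMEM158 and SFRP1 at -1.91 to -1.57, next to SPRY4, GDF15, ETV5, PHLDA1 and SPRED2. TM4SF1, a membrane protein of many carcinomas, had the smallest adjusted p of the fall within either autophagy inhibitor. It had 224, 207, 269 and 288 CPM with SCH772984 and 649 to 793 CPM (median 759.9) alone (-1.57 ± 0.08, adjusted p = 2e-19), and fell by 1.65 with hydroxychloroquine and by 1.48 with the Vps34 inhibitor.

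**Figure D5:**
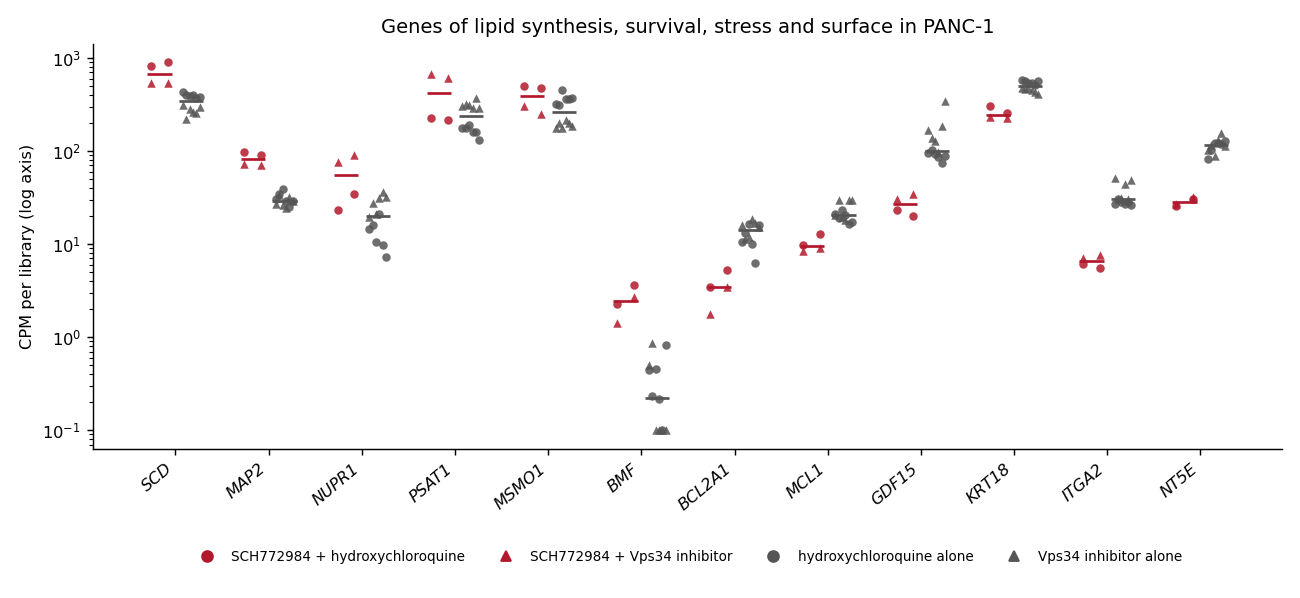
Level of 12 genes in each library (CPM, log axis), SCH772984 in red on the left and autophagy inhibitor alone in grey on the right of each panel; circles are hydroxychloroquine, triangles the Vps34 inhibitor, lines medians. MAP2, SCD and BMF lie above and GDF15, KRT18, ITGA2 and NT5E below the alone libraries in all 4 SCH772984 libraries, while MSMO1 and PSAT1 separate only within each autophagy inhibitor.

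The plot of single genes by library shows 2 kinds of separation. MAP2, ITGA2 and NT5E were apart whatever the autophagy inhibitor. For MSMO1, PSAT1 and NUPR1 the alone level differed between the autophagy inhibitors, and SCH772984 lay above it within each.

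Of the 58 genes that differed from the mean of the other ERK inhibitors, 30 were also called against alone. Taken against each drug, 47 were called against ulixertinib, 13 against ravoxertinib and 6 against AZD0364, and 46 had the same sign against all 3. The 58 were chosen by their difference from the mean of these drugs, so the shared signs are partly fixed by that choice. EIF3CL was the gene called against all 3. It had 0, 0, 0.35 and 13.001 CPM with SCH772984 and 8.28 to 58.7 CPM (median 41.5) alone. It has a near-identical copy, EIF3C, between which reads can be split, so its value is uncertain. The count of 58 was 16 without the SCH772984-Hydroxychloroquine library of plate B, 22 when only the libraries of the comparison were fitted, and 1 and 5 within the plates.

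Those higher with SCH772984 included SSBP3, a single-stranded DNA binding cofactor (0.71 ± 0.12, adjusted p = 0.0011), PNPLA2, the lipase that starts the breakdown of stored fat (0.44 ± 0.08, adjusted p = 0.0012), and GAS5, a noncoding host gene of small nucleolar RNAs (0.75 ± 0.13, adjusted p = 0.0016). The mitotic genes NDC80 (0.91 ± 0.16, adjusted p = 0.0012), DEPDC1 (0.64 ± 0.10, adjusted p = 0.00092) and KIF2C (0.56 ± 0.10, adjusted p = 0.0016) were among them. Taken singly, NDC80, DEPDC1 and KIF2C differed from ulixertinib by 1.96, 1.36 and 1.71. None of these mitotic genes was called against AZD0364 (0.46, 0.41 and 0.20) or ravoxertinib (0.31, 0.13 and -0.24). SSBP3 was called against ulixertinib (1.24) but not against AZD0364 (0.42) or ravoxertinib (0.45). PNPLA2 was called against ulixertinib (0.72) and ravoxertinib (0.40) but not against AZD0364 (0.21). GAS5 was called against ulixertinib (0.65) and AZD0364 (0.96) but not against ravoxertinib (0.65), nor against alone (0.34 ± 0.14). METTL16 (3.73 ± 0.62) and FAM171B (4.18 ± 0.73) were called from 1 library and stood at 0.16 and -0.29 without it. Those lower included SDC1, a heparan sulfate proteoglycan (-0.44 ± 0.10, adjusted p = 0.024), AHSA1, a cochaperone of HSP90 (-0.52 ± 0.13, adjusted p = 0.039), TTC14 (-0.75 ± 0.16, adjusted p = 0.012) and CD2BP2 (-0.65 ± 0.15, adjusted p = 0.03). Singly, SDC1 differed by 0.08 from ulixertinib, -0.54 from AZD0364 and -0.87 from ravoxertinib, and only the last was called. AHSA1 and CD2BP2 were called only against ulixertinib (-0.67 and -0.90). Against AZD0364 they stood at -0.49 and -0.39, and against ravoxertinib at -0.41 and -0.65. TTC14 was called against ulixertinib (-0.89) and ravoxertinib (-0.88) but not AZD0364 (-0.49), nor against alone (-0.12).

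KRT80, a keratin, was picked out after its values were seen. It had 24.7 and 22.98 CPM with SCH772984 and hydroxychloroquine and 9.11 and 15.7 CPM with SCH772984 and the Vps34 inhibitor, against 4.03 to 8.29 CPM with ulixertinib, 2.902 to 13.3 with AZD0364, 2.24 to 13.2 with ravoxertinib and 1.300 to 13.8 CPM (median 5.43) alone. The hydroxychloroquine libraries with SCH772984 were above every library of the other groups, and of those with the Vps34 inhibitor 1 was. KRT80 changed by 1.66 ± 0.22, adjusted p = 3e-07 against alone and 1.33 ± 0.22, adjusted p = 0.00092 against the other 3. Singly, the difference was 1.53 ± 0.29, adjusted p = 0.00029 against ulixertinib, 1.32 ± 0.28, adjusted p = 0.011 against ravoxertinib and 1.16 ± 0.28, adjusted p = 0.086 against AZD0364. MKNK2, a kinase that ERK activates, was higher with SCH772984 than alone (0.95 ± 0.07, adjusted p = 1.1e-13), lower than with ulixertinib (-0.37 ± 0.10, adjusted p = 0.015) and higher than with AZD0364 (0.53 ± 0.10, adjusted p = 0.0061) and ravoxertinib (0.44 ± 0.10, adjusted p = 0.014). The MKNK2 call against AZD0364 was lost without either AZD0364 library of plate B. It was also picked out after its values were seen.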

How the data were processed

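Gene counts as deposited by the authors, whole numbers with no normalisation and 1 column per library, were the start of all values. Per the submitters' processing notes, kallisto 0.44.0 and GRCh38 were used, and how transcripts were summed to genes is not stated. Of 25435 genes in the table, 4605 had no count. Gene positions come from GENCODE 29 on GRCh38.

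All 68 PANC-1 libraries were fitted together by the quasi-likelihood test of edgeR 4.0.16 (TMM scaling, robust dispersion), with 30 treatment groups and plate as terms, 37 residual degrees of freedom, and 12627 genes left by filterByExpr. Tests were two-sided. Benjamini-Hochberg adjustment ran over all genes tested, separately for each comparison, with 0.05 as the threshold. Standard errors follow from the fold change and its F value, and 95% intervals from the t distribution. CPM were computed here with TMM-scaled library sizes. Each effect weighs the autophagy inhibitors equally. Titles give the plate, which pairs libraries only weakly: deviations on the same plate correlated at -0.031 to 0.186 between groups (median 0.0664), while the plate term passed for 2082 genes. Shares of counts were compared by exact permutation within plate and autophagy inhibitor (256 arrangements, smallest p 0.00390625), adjusted over the shares tested.

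Alternatives were DESeq2 1.42.0, other scalings and filters, fits without plate, within a plate or on fewer libraries, and each library left out; those for single ERK inhibitors were added after the data were seen. The members and gene lists were chosen with earlier results of these data known. Lists are described by counts and medians without a test. Named genes are all ERK targets, every called lipid gene, and up to 4 called members of each other list with the smallest adjusted p. The 12 largest rises and 12 largest falls were added from called genes that averaged at least 4 on the log2 CPM scale and separated within each autophagy inhibitor. Against the other ERK inhibitors the rule takes the ERK targets and, per direction, the 10 called genes with the smallest adjusted p; per autophagy inhibitor it takes 5. A few genes that meet these rules are not reported here. Others are said to be chosen after their values were seen. The fit was checked on simulated counts with known changes. R 4.3.3, limma 3.58.1, Python 3.11.15, pandas 2.3.3, NumPy 2.4.6, SciPy 1.17.1 and matplotlib 3.10.9 were used.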

Additional observations from a re-analysis of the deposited data

Results flagged for a closer look

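Among 138 named genes, the 6 alone libraries of each autophagy inhibitor were examined for 1 library far from the other 5, by Dixon's ratio. Of 276 such groups 20 were flagged, and chance flags about 1 in 20. All are alone libraries, so they widen the range against which SCH772984 was set. With hydroxychloroquine alone, replicate 2 had DHCR7 at 279.6 CPM (median of the 6, 161.6), FADS2 at 19.9 (43.6) and PDK3 at 24.7 (16.6). Replicate 1 had MAP1LC3A at 20.6 CPM (11.4) and METTL16 at 37.2 (19.3), replicate 3 had IDI1 at 42.1 (36.6) and TPP1 at 379 (276), and replicate 5 had GABARAP at 117 (141).

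With the Vps34 inhibitor alone, replicate 2 had METTL16 at 33.4 CPM (16.4) and MVK at 1.73 (5.03). Replicate 4 had DUSP5 at 89.7 CPM (56.7) and FEN1 at 36.6 (22.8). Replicate 5 had CD2BP2 at 54.0 CPM (37.0), EBP at 55.0 (34.2), NCAPG at 167 (125) and PSAT1 at 368 (308). Replicate 6 had EIF3CL at 8.28 CPM (41.6), GDF15 at 341 (153) and SFRP1 at 93.0 (52.6). Replicate 3 had FAM171B at 496 CPM (17.2).

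The effect of SCH772984 on FAM171B differed between the autophagy inhibitors, by -10.83 on the log2 scale (Vps34 inhibitor minus hydroxychloroquine, edgeR interaction test). The gene had 8225 CPM in the SCH772984-Hydroxychloroquine library of plate B, and the number of genes with such a difference was 0 when that library was left out.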

How the results depend on the processing

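Counts of called genes were within 1.5 times of those reported in every comparison with DESeq2's size factors in edgeR, with library totals only and without the filter on low counts. Leaving out 1 library gave 494 to 867 genes for SCH772984 against alone, 110 to 402 with hydroxychloroquine, 142 to 391 with the Vps34 inhibitor and 0 to 12 for the difference between them. It gave 16 to 60 against the other 3 ERK inhibitors, 290 to 384 against ulixertinib, 0 to 11 against AZD0364 and 17 to 67 against ravoxertinib. Without plate as the replicate block, 739 genes passed against alone, 2 for the difference between autophagy inhibitors, 7 against AZD0364 and 34 against ravoxertinib. That fit missed the threshold for LSS, SPC25, MANF, AGR2 and VIM against alone, for PHLDA1, PNPLA2 and AHSA1 against the other 3 drugs, for EBP and PHLDA1 against ulixertinib, for RRM2 against AZD0364 and for PCNA, FEN1, MCM3 and PHLDA1 against ravoxertinib. Within plate A and plate B, 134 and 250 genes passed against alone, and 1 and 5 against the other 3 drugs. Fits on only the libraries compared called 253 with hydroxychloroquine, 154 with the Vps34 inhibitor, 0 for their difference and 22 against the other 3 drugs. A mean of at least 10 CPM gave 5 for that difference, 24 against AZD0364 and 97 against ravoxertinib. DESeq2 gave 942 against alone, 19 for the difference, 130 against the other 3 drugs, 44 against AZD0364 and 146 against ravoxertinib. The causes were not tested.

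Signs turned for genes near 0 or carried by 1 library. With 1 library left out, the difference from the other 3 drugs ran from -0.21 to 0.12 for DUSP5, -2.86 to 0.0753 for DUSP6, -2.29 to 0.30 for ETV4, -0.00124 to 0.53 for SPRED3 and -0.29 to 4.71 for FAM171B. Within plate A it was 0.32 for SPRY4, 0.0487 for CCND1 and -0.21 for FAM171B, and within plate B 0.10 for DUSP5. Against alone, SPRED1 was 0.0288 within plate B. With 1 library left out GAR1 ran from -0.0281 to 1.34 and PDK3 with hydroxychloroquine from -0.0183 to 4.81. Of 1808 values of the 113 genes named against alone with 1 library left out, 1659 kept their direction and side of the threshold and 147 missed the threshold.

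With 2 libraries per combination and 2523054 to 4864359 counts in each, genes of a few CPM such as ETV4, EGR1, DUSP6 and BMF rest on few reads.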
